A study of Mus musculus with 4 samples.

Results

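Potassium channel genes were followed in the RNA of mouse sympathetic ganglia. They were taken as the mouse genes whose RefSeq symbol begins with Kcn and whose Entrez identifier was listed in at least 1 library. Of the 93 such symbols analysed here, 84 were listed, among 17667 genes listed in all, and the 9 that were not listed were Kcna10, Kcne1, Kcng3, Kcnj1, Kcnj6, Kcnk7, Kcnmb3, Kcnmb4os2 and Kcnv2. The rule used no measured level beyond a listing, and 81 of the 84 genes code for protein.

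The study asked how neurotrophin-3 (NT-3) and its receptor TRKC act on the sympathetic neurons that innervate fat, and RNA-seq was done on the T1-T4 ganglia, which supply interscapular brown fat. Each of the 4 libraries was a pool of ganglia from 6 C57BL/6 mice aged 12 weeks, all of which had spent 1 day at 5 °C, so no library came from mice kept warm. There were 2 libraries from WT mice, 1 from TRKC+/- mice and 1 from AdNTF3-Tg mice. TRKC+/- mice lack 1 copy of the TRKC gene Ntrk3 in every cell. In AdNTF3-Tg mice a fat-cell (adiponectin) promoter drives NT-3, and its route to the ganglia was not measured here. The study kept WT controls for each mutant, but the labels do not tie either WT library to a mutant, so each mutant library was set against both WT libraries, numbered 1 and 2, and the gap between the WT libraries was the only measure of spread.

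The libraries held between 8665955 and 8894985 reads on genes. All 15 markers fixed for sympathetic neurons were listed in every library, among them Th, the rate-limiting enzyme of catecholamine synthesis, at between 2576 and 2753 FPKM (a read number adjusted for gene length and library size), and none of them differed from both WT libraries by a log2 ratio of 0.5 in the same direction, although smaller differences occurred, as for Npy in the AdNTF3-Tg library (-0.33 and -0.20). Ntrk3 itself was at 2.45 and 2.52 FPKM in the WT libraries, 2.72 in the library labelled TRKC+/- and 2.32 in the AdNTF3-Tg library, from 76 to 91 reads, so the library labelled TRKC+/- had the highest value where a lower one would check the label, and its directions below carry that limit. The files do not show which part of the gene the reads came from. The WT libraries stood at the ends of the range in skeletal muscle RNA, with a summed level over 14 muscle genes of only 4.83 FPKM in WT library 2 and of 115.58 in WT library 1, while the library labelled TRKC+/- held 54.01 and the AdNTF3-Tg library 39.14. The part of muscle RNA in any potassium channel value was not tested.

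Potassium channels set the resting potential of a neuron and end its action potentials. In sympathetic neurons the KCNQ channels carry the M-current, a slow current that restrains repetitive firing and that acetylcholine and bradykinin shut off. Kv4 channels carry a transient A-type current that delays the first spike, Kv2 and Kv3 channels repolarize the membrane, calcium-activated BK and SK channels follow each spike with a hyperpolarization, some inward rectifiers answer G proteins or ATP, and the 2-pore-domain channels leak potassium at rest. Auxiliary subunits bind the pore-forming subunits and alter their gating and traffic.

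The pore-forming members share the selectivity filter, a Gly-Tyr-Gly or Gly-Phe-Gly turn that lines the narrowest part of the pore. Its codons were looked for in frame, on the coding strand only, as NTN and GGN followed by TAN (Tyr) or TTN (Phe or Leu) and a last GGN, in the longest coding sequence of each gene in GENCODE M1 (build NCBIM37). Kcng2 had no coding sequence there and was not searched. A match stood in 62 of the other 65 pore-forming members (95.4%), in 0 of 15 auxiliary members and in 1143 of 21632 coding genes (5.28%), which include the members. The classes follow gene names that stand for known channel families, so these shares describe the genes and do not test their choice. The 3 pore-forming members without a match were Kcnh8, Kcnk1 and Kcnma1, and a missing match says only that these letters were not in the transcript used. Below is the match of a highly expressed member of each of 6 pore-forming classes, with the 3 filter codons in capitals.
Kcna6: accacggtaGGTTATGGGgacatgtac
Kcnc4: acaacgcttGGCTATGGGgacatgtat
Kcnd1: accacacttGGGTATGGAgatatggta
Kcnh2: accagcgtgGGCTTTGGCaatgtctct
Kcnj3: gccaccatcGGCTATGGCtaccgctac
Kcnk10, first pore: acaaccataGGGTATGGGaatattgct
Kcnk10, second pore: accacagtaGGCTTTGGTgattttgtg
The 2-pore-domain genes are named for carrying 2 such loops in a single chain, and 11 of their 13 listed members held at least 2 matches. In Kcnk10 the first match read Gly-Tyr-Gly and the second Gly-Phe-Gly. Kcnh2, of the ERG channels, also carried the Phe form.

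Of the 84 members, 11 had a mean level over the 4 libraries of at least 10 FPKM, 30 a mean between 1 and 10 FPKM and 43 a mean under 1 FPKM. In 14 members no library held more than 3 reads. Together the members took 16431 reads in WT library 1 and 16287 in WT library 2, which is 0.1896% and 0.1841% of the reads on genes. The library labelled TRKC+/- held 16730 member reads (0.188%) and the AdNTF3-Tg library 17051 (0.194%).

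Kcnip4, a calcium-binding protein that attaches to Kv4 channels, had the highest level of the members, at 106 and 122 FPKM in WT, 106 in the library labelled TRKC+/- and 126 in the AdNTF3-Tg library. Kcnab2, a β subunit of Kv1 channels, stood next at 55.67 to 61.75 FPKM, except that Kcnmb4 slightly exceeded it in WT library 2. Kcnc4, a fast Kv3 subunit, and Kcnmb4, a β subunit of BK channels, lay between 50.20 and 56.01 FPKM and overlapped, so that their order differed between libraries.

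**Figure D1:**
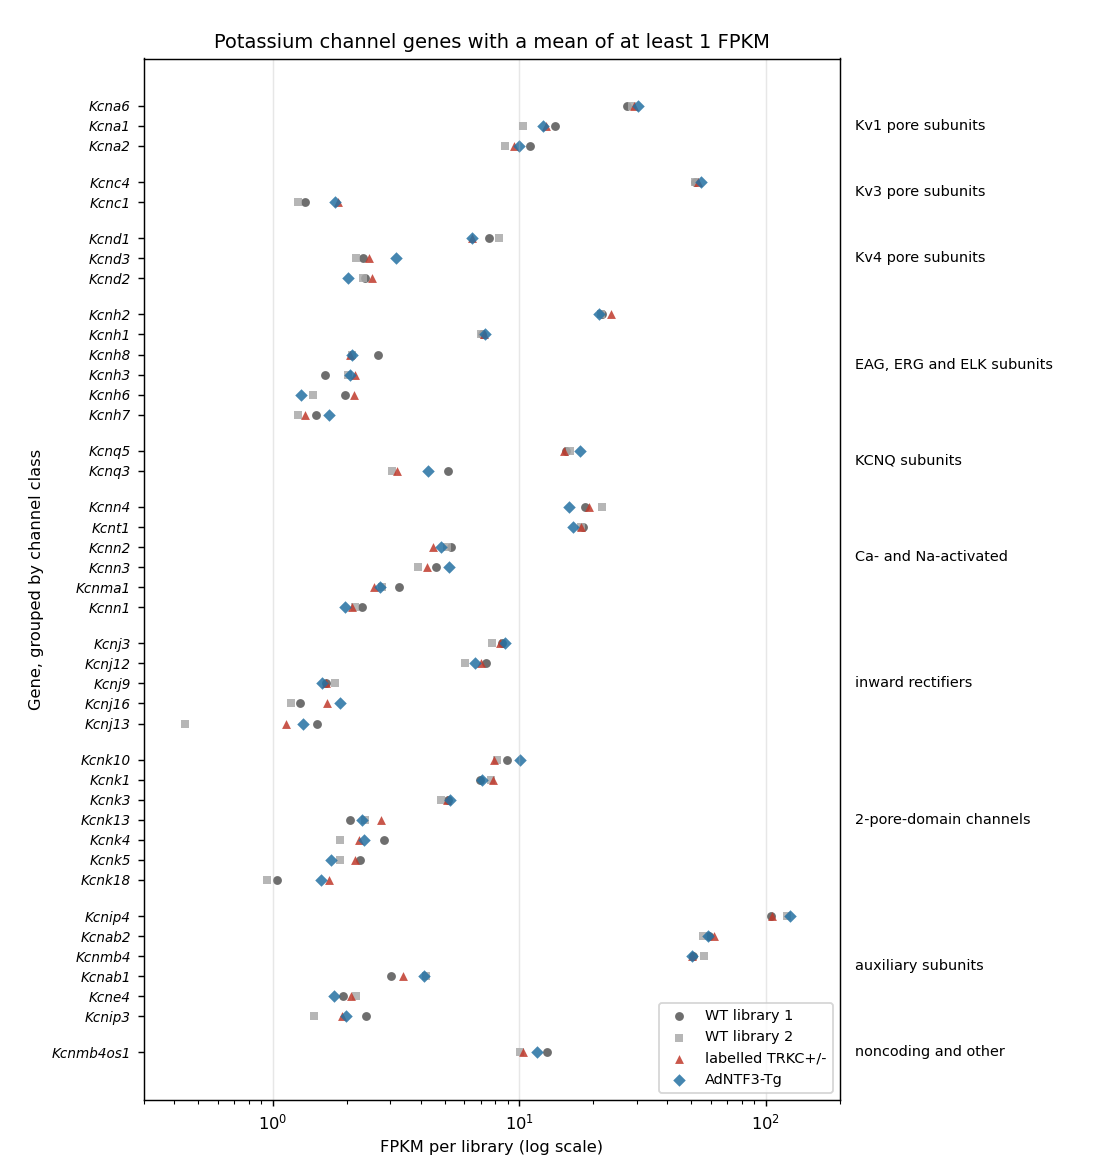
Level of the 41 potassium channel genes that averaged 1 FPKM or more, with FPKM per library on a log axis, genes grouped by channel class, and 1 marker per library. For most genes the 4 markers lie close together: 34 of the 41 have less than a 1.5-fold gap between the highest and the lowest library, and Kcnj13 is the widest at 3.43-fold.

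Among these 41 genes the highest library exceeded the lowest by less than 1.5-fold in 34. The 11 members with a mean of 10 FPKM or more differed by 1.06-fold to 1.36-fold. The 7 with a wider gap were Kcnh6, Kcnip3, Kcnj13, Kcnj16, Kcnk18, Kcnk4 and Kcnq3.

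For each pair of a mutant and a WT library a 95% counting interval of the log2 ratio of reads was computed. These are exact Clopper-Pearson intervals of the share of reads, and like the floor of 3 reads they reflect counting error alone.

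Kcnq5, a KCNQ subunit that can carry M-current, was at 15.49 and 16.15 FPKM in the WT libraries, 15.27 in the library labelled TRKC+/- and 17.62 in the AdNTF3-Tg library, from 927 to 1067 reads. The AdNTF3-Tg library was the highest for Kcnq5, by log2 ratios of 0.18 (counting interval 0.05 to 0.31) and 0.12, and the second interval reached below 0.

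Kcnq3, a subunit of the M-channel, had WT libraries that lay far apart. It was at 5.13 FPKM (126 reads) in WT library 1 and 3.05 (76 reads) in WT library 2, a log2 ratio of -0.73 with a counting interval of -1.19 to -0.34. The library labelled TRKC+/- held 3.19 FPKM (80 reads) and the AdNTF3-Tg library 4.28 (106 reads), both between the WT values. Against WT library 1 the library labelled TRKC+/- was lower by a log2 ratio of -0.67, and against WT library 2 the ratio was 0.06. Taken alone, WT library 1 would place Kcnq3 past the cutoff of 0.5 in that library and WT library 2 would not. Kcnq1, the cardiac and epithelial KCNQ gene, had 1 to 6 reads per library.

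Of the genes that act on the M-current, 14 receptors and transducers were listed. The muscarinic receptor Chrm1 was at 16.77 to 17.38 FPKM in all 4 libraries, and the bradykinin receptor Bdkrb2 at 11.45 and 13.73 FPKM in WT, 10.95 in the library labelled TRKC+/- and 14.01 in the AdNTF3-Tg library. None of the 14 differed from both WT libraries by a log2 ratio of 0.5 in the library labelled TRKC+/-, where 4.27% of all genes compared did. In the AdNTF3-Tg library, where 5.7% of all genes did, 1 of them did, Pip5k1b, a kinase that makes the lipid the channel needs, with 21 and 18 reads in WT and 33 reads there; edgeR's quasi-likelihood test called 0 of the 14 in either comparison (0.00706% and 0.0% of all genes tested), so these counts are near the shares of all genes, and this gene was named after its value was seen.

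**Figure D2:**
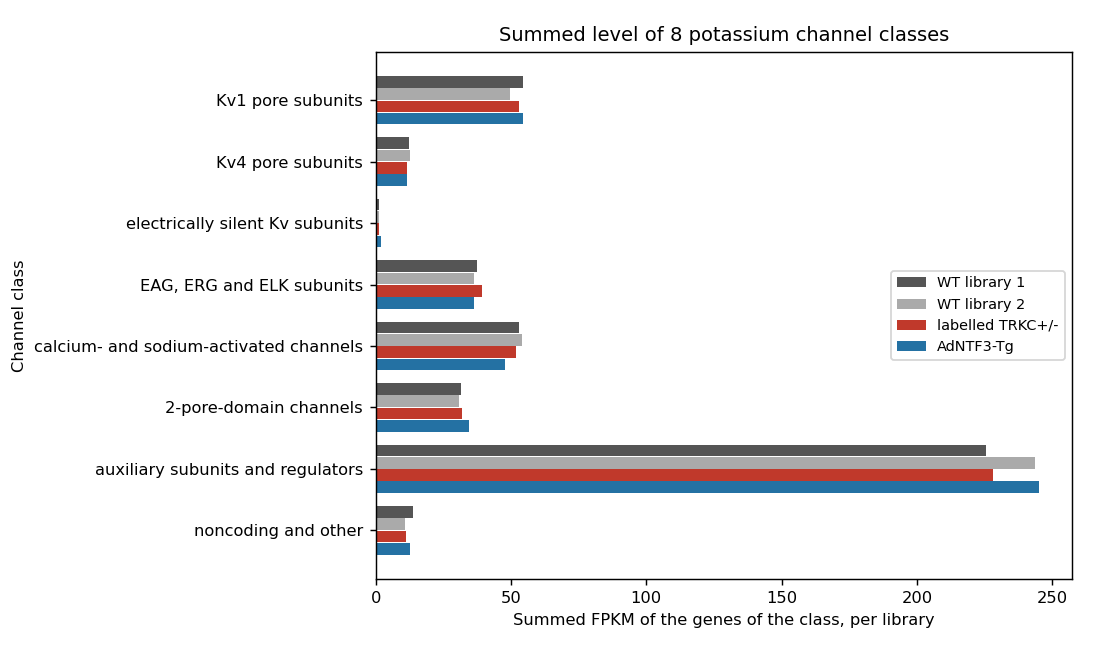
Summed FPKM of the member genes in each of 8 channel classes, with 1 bar per library and no error bars because each bar is a single pooled library. Auxiliary subunits have the highest sum of these (225 to 245 FPKM), the Kv1 pore subunits lie at 49.71 to 54.55 FPKM and the electrically silent subunits stay under 2 FPKM.

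The Kv1 pore genes summed to 54.49 and 49.71 FPKM in WT, 53.0 in the library labelled TRKC+/- and 54.55 in the AdNTF3-Tg library. Kcna6 led, at 27.33 and 28.81 FPKM in WT, 29.30 in the library labelled TRKC+/- and 30.34 in the AdNTF3-Tg library. Kcna1 and Kcna2, whose products lie along myelinated axons beside the nodes, were both higher in WT library 1 than in WT library 2. Kcna1 was at 13.97 and 10.38 FPKM in WT, 12.82 in the library labelled TRKC+/- and 12.49 in the AdNTF3-Tg library. Kcna2 was at 11.11 and 8.73 FPKM in WT, 9.5 in the library labelled TRKC+/- and 10.04 in the AdNTF3-Tg library. The WT gap had a log2 ratio of -0.42 (counting interval -0.57 to -0.30) for Kcna1 and -0.34 (-0.48 to -0.22) for Kcna2, and in both genes the mutant libraries fell inside it. Glial markers, which include myelin genes, summed to 2877 and 2563 FPKM in WT, 2914 in the library labelled TRKC+/- and 2651 in the AdNTF3-Tg library, and whether they have a part in the Kcna1 and Kcna2 values was not tested. Kcna4, an A-type Kv1 subunit, held only 12 and 4 reads in WT and 8 and 9 in the mutant libraries.

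Kcnab2 stood at 1.07 to 1.17 times the summed Kv1 pore FPKM in all libraries. Its relative Kcnab1 was at 3.02 and 4.20 FPKM in WT, 3.37 in the library labelled TRKC+/- and 4.11 in the AdNTF3-Tg library, again inside the WT range. The partner Amigo1, a membrane protein that binds Kv2, was at 17.51 to 20.63 FPKM.

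Of the Kv3 subunits, Kcnc4 was at 51.60 and 51.54 FPKM in WT, 52.98 in the library labelled TRKC+/- and 54.65 in the AdNTF3-Tg library. Kcnc1, another fast Kv3 subunit, was at 1.35 and 1.27 FPKM in WT, 1.85 in the library labelled TRKC+/- and 1.80 in the AdNTF3-Tg library, so both mutants were above both WT values. The Kcnc1 log2 ratios of 0.39 to 0.51 left counting intervals that included 0 in 3 of the 4 pairs, all but the library labelled TRKC+/- against WT library 2 (0.08 to 0.93).

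The Kv4 genes, which carry A-type current, were low beside their auxiliary subunit. Kcnd1 was at 7.55 and 8.31 FPKM in WT, 6.45 in the library labelled TRKC+/- and 6.43 in the AdNTF3-Tg library, below both WT values in both, with counting intervals that all included 0. Kcnd2 was at 2.37 and 2.33 FPKM in WT, 2.52 in the library labelled TRKC+/- and 2.02 in the AdNTF3-Tg library. Kcnd3 was at 2.32 FPKM (138 reads) and 2.18 (131 reads) in WT, 2.46 (156 reads) in the library labelled TRKC+/- and 3.16 (190 reads) in the AdNTF3-Tg library. For Kcnd3 the WT libraries lay close (log2 ratio -0.09) and the AdNTF3-Tg library stood above both, by 0.43 (counting interval 0.11 to 0.77) and 0.52 (0.21 to 0.88). The edgeR test of Kcnd3 gave a log2 fold change of 0.50 with an adjusted p = 0.817.

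Kcnip4 had 8.63 and 9.5 times the summed Kv4 pore FPKM in WT, 9.28 times in the library labelled TRKC+/- and 10.9 times in the AdNTF3-Tg library. Its own WT libraries differed by a log2 ratio of 0.20 (counting interval 0.11 to 0.28), and the AdNTF3-Tg value exceeded that of WT library 1 by 0.25 but that of WT library 2 by only 0.05. Dpp6, another Kv4 partner, was at 39.58 and 41.76 FPKM in WT, 41.52 in the library labelled TRKC+/- and 45.55 in the AdNTF3-Tg library.

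The EAG, ERG and ELK class was led by Kcnh2, the ERG channel, at 21.72 and 21.52 FPKM in WT, 23.57 in the library labelled TRKC+/- and 21.19 in the AdNTF3-Tg library. Kcnh1, an EAG channel, lay within 7.02 to 7.29 FPKM in all 4. Kcnh8, an ELK channel, was highest in WT library 1, at 2.68 FPKM, and at 2.06 to 2.11 in the other libraries. The 8 electrically silent Kv subunits that were listed, which modify Kv2 channels and form no channel alone, had 40 and 43 reads in all in WT, 43 in the library labelled TRKC+/- and 63 in the AdNTF3-Tg library.

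Of the calcium- and sodium-activated channels, Kcnn4, a calcium-activated channel of intermediate conductance best known from blood cells, was at 18.55 and 21.60 FPKM in WT, 19.22 in the library labelled TRKC+/- and 15.94 in the AdNTF3-Tg library. The AdNTF3-Tg value of Kcnn4 lay below both WT values, by log2 ratios of -0.22 (counting interval -0.47 to 0.01) and -0.44 (-0.66 to -0.20), with an edgeR adjusted p = 0.817. Macrophage markers summed to 146.17 and 121.68 FPKM in WT, 131.34 in the library labelled TRKC+/- and 107.33 in the AdNTF3-Tg library, and their part in Kcnn4 was not tested. Kcnt1, a sodium-activated channel, was at 18.17 FPKM (900 reads) and 17.88 (896 reads) in WT, 17.87 (895 reads) in the library labelled TRKC+/- and 16.58 (809 reads) in the AdNTF3-Tg library. Its listed length was 5749 and 5721 in the WT libraries and 5601 in the AdNTF3-Tg library. The counting intervals are of reads and were not adjusted for that shorter length. The first 3 libraries were almost level for Kcnt1, and the AdNTF3-Tg library was lower by log2 ratios of -0.13 (-0.32 to -0.038) and -0.11 (-0.28 to -0.0018), with an edgeR adjusted p = 0.819.

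The SK genes, whose channels hyperpolarize the membrane after spikes, were lower. Kcnn2 was at 5.31 and 5.08 FPKM in WT, 4.47 in the library labelled TRKC+/- and 4.82 in the AdNTF3-Tg library. Kcnn3 was at 4.61 and 3.89 FPKM in WT, 4.22 in the library labelled TRKC+/- and 5.21 in the AdNTF3-Tg library. Kcnn1 was lowest, at 1.97 to 2.31 FPKM, and none of the SK genes left the WT range by more than the counting interval against both WT libraries. For BK channels the pore gene Kcnma1 was at 2.58 to 3.25 FPKM and its β subunit Kcnmb4 at 50.20 to 56.01, a ratio of 15.7 to 20.1. The antisense gene Kcnmb4os1, at 10.06 to 12.96 FPKM, lies at the same locus, the sources do not state whether counting used strand, and reads of the pair cannot be told apart. The same limit holds for Kcnq1 with Kcnq1ot1 and for Kcnd3 with Kcnd3os, although Kcnd3os had at most 2 reads in any library.

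The G protein-gated inward rectifiers were represented by Kcnj3, at 8.49 and 7.78 FPKM in WT, 8.39 in the library labelled TRKC+/- and 8.74 in the AdNTF3-Tg library, and by Kcnj9, at 1.59 to 1.80 FPKM. Their usual partners were barely seen: Kcnj6 was not listed and Kcnj5 had 1 read, in the library labelled TRKC+/-. Kcnj12, a constitutive inward rectifier, was at 7.34 and 6.06 FPKM in WT, 7.00 in the library labelled TRKC+/- and 6.62 in the AdNTF3-Tg library.

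Kcnj16, a pH-sensitive inward rectifier subunit, was at 1.29 FPKM (40 reads) and 1.19 (38 reads) in WT, 1.67 (54 reads) in the library labelled TRKC+/- and 1.88 (60 reads) in the AdNTF3-Tg library. Both mutant libraries were above both WT libraries, and the AdNTF3-Tg ratios passed the cutoff, at 0.51 (counting interval -0.04 to 1.18) and 0.62 (0.06 to 1.29), with an edgeR adjusted p = 0.817. The filter codons of Kcnj16 were these.
Kcnj16: accaccattGGATACGGTtaccgctgt
For the ATP-sensitive channels, the pore gene Kcnj8 was at 1.08 and 0.37 FPKM in WT, 1.32 in the library labelled TRKC+/- and 0.70 in the AdNTF3-Tg library, from 7 to 25 reads and a WT log2 ratio of -1.33 (counting interval -3.03 to -0.24). Kcnj11 held 2 reads in WT library 1 and 1 in the AdNTF3-Tg library. Kcnj8 marks pericytes, and the smooth muscle and pericyte list summed to 120.84 and 96.51 FPKM in WT, 111.11 in the library labelled TRKC+/- and 95.29 in the AdNTF3-Tg library. Tagln led that sum, at 73.05 and 55.11 FPKM in WT. Other genes of the list went different ways between the WT libraries: Pdgfrb was at 4.04 and 3.34 FPKM, Rgs5 at 17.35 and 16.66, and Notch3 at 1.46 and 1.81. Whether pericytes have a part in the Kcnj8 values was not tested. In such bulk tissue, fewer cells of a type and less RNA per cell cannot be told apart. Kcnj13 showed the widest WT gap of the members at 1 FPKM or more, with 17 reads in WT library 1 and 5 in WT library 2 (log2 ratio -1.58, counting interval -3.59 to -0.30).

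Of the 2-pore-domain channels, Kcnk10, a mechano- and lipid-sensitive leak channel, was at 8.9 and 8.1 FPKM in WT, 7.94 in the library labelled TRKC+/- and 10.08 in the AdNTF3-Tg library. Kcnk1 was at 6.94 to 7.85 FPKM and Kcnk3, an acid-sensitive leak channel, at 4.82 to 5.27 FPKM. For each of these 3 genes the counting interval of either mutant included 0 against at least 1 WT library. Kcnk2, related to Kcnk10, held 20 and 23 reads in WT, 12 in the library labelled TRKC+/- and 32 in the AdNTF3-Tg library, the lowest and the highest of the 4, and the counting intervals of the library labelled TRKC+/- included 0 against both WT libraries (-1.94 to 0.33 and -2.09 to 0.12).

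Kcnk18, a leak channel that calcium switches on through calcineurin, exceeded both WT libraries by the cutoff in each mutant library. It was at 1.04 FPKM (27 reads) and 0.95 (25 reads) in WT, 1.70 (45 reads) in the library labelled TRKC+/- and 1.57 (41 reads) in the AdNTF3-Tg library. Each mutant value lay above both WT values. Of all genes at 1 FPKM or more, 32.6% also did in the library labelled TRKC+/- and 34.5% in the AdNTF3-Tg library. The WT libraries differed by a log2 ratio of only -0.12. In the library labelled TRKC+/- the log2 ratios were 0.66 (counting interval -0.02 to 1.44) and 0.78 (0.10 to 1.61), with an edgeR adjusted p = 0.999. In the AdNTF3-Tg library they were 0.55 (-0.16 to 1.34) and 0.67 (-0.03 to 1.5), with an edgeR adjusted p = 0.817. Both comparisons used the same WT libraries, so a low WT value enters both. The 2 filter matches of Kcnk18 are printed because the counts below turn on this gene.
Kcnk18, first pore: agcacagtgGGTTATGGCcacatgtac
Kcnk18, second pore: accaccatcGGGTTTGGGgacatcgtg

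Across all members, 71 were listed in every library and could be compared. A gene was counted as different when its log2 ratio, with 0.1 FPKM added to each value, was at least 0.5 in the same direction against both WT libraries. In the library labelled TRKC+/- 6 of the 71 were counted, against 4.27% of the 15275 genes compared. That count was 0 with a pseudocount of 1, 1 with a cutoff of 1, 15 without WT library 1 and 11 without WT library 2. Kcnk18 and Kcne1l were higher, where 1.78% of all genes were, and Kcna3, Kcnc2, Kcnj15 and Kcnk2 were lower, where 2.49% were. Apart from Kcnk18, these genes held at most 32 reads in any library. They lie outside the rule for named genes, apart from Kcnk2 and Kcnk18, and were named after their values were seen. Kcna3, a Kv1 channel of immune cells and axons, had 14 and 9 reads in WT and 3 in the library labelled TRKC+/-. Kcnc2 had 23 and 22 reads in WT and 13 in that library.

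In the AdNTF3-Tg library 8 of the 71 were counted, against 5.7% of all genes compared, and 1, 2, 16 and 15 under the same settings. Kcnj16, Kcnk18, Kcnk9, Kcnrg, Kcns2 and Kcnv1 were higher, where 2.12% of all genes were, and Kcnj15 and Kcnq1 were lower, where 3.58% were. Kcnk9, an acid-sensitive leak channel related to Kcnk3, had 5 and 7 reads in WT and 15 in the AdNTF3-Tg library, and Kcnrg, a regulator of Kv assembly, had 7 and 5 reads in WT and 14. The others outside the rule for named genes had at most 13 reads in any library and were likewise named after their values were seen. Among the 41 members that averaged 1 FPKM or more the count was 1 in the library labelled TRKC+/- (1.64% of such genes overall) and 2 in the AdNTF3-Tg library (2.6%). At any size of difference, 14 of these 41 lay above both WT libraries (32.6% of such genes overall) and 9 below both (30.5%) in the library labelled TRKC+/-, and 15 lay above (34.5%) and 13 below (34.7%) in the AdNTF3-Tg library.

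**Figure D3:**
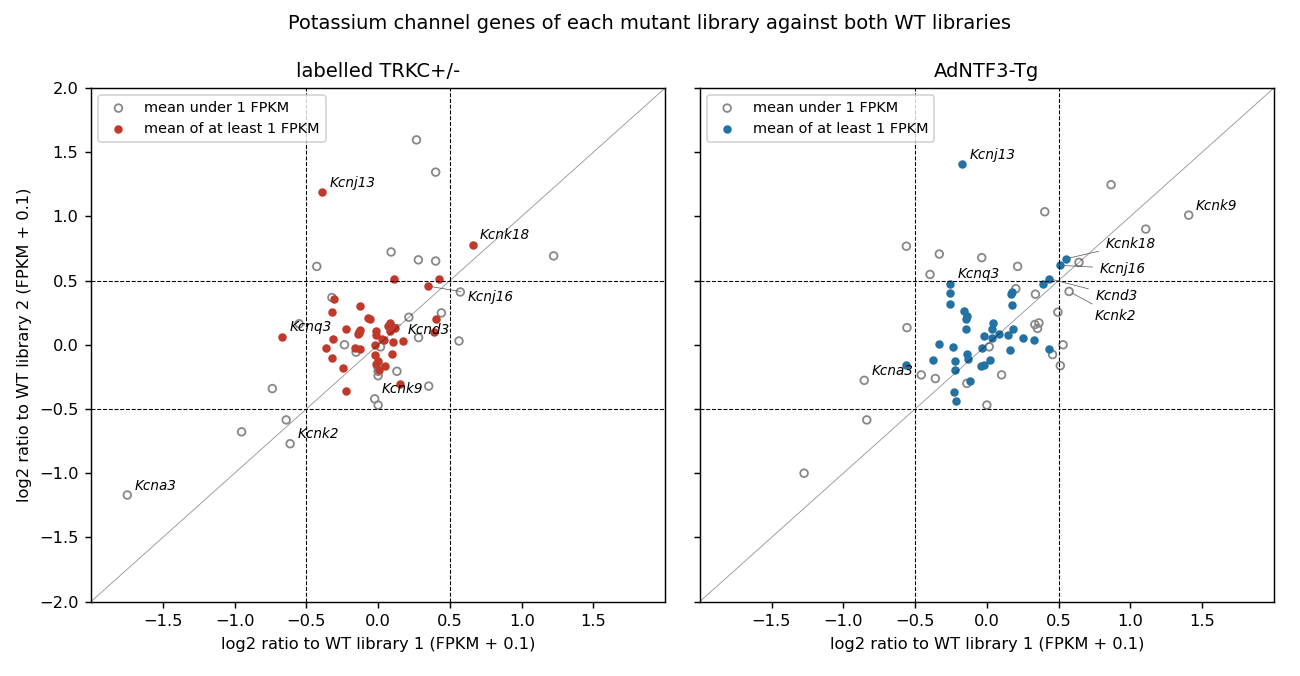
Log2 ratio of each of the 71 members to WT library 1 (horizontal) and to WT library 2 (vertical), on the FPKM + 0.1 scale, for the library labelled TRKC+/- (left) and the AdNTF3-Tg library (right), with dashed lines at the cutoff of 0.5 and a solid line where both ratios are equal. Filled points (mean of at least 1 FPKM) cluster around 0, and only Kcnk18 on the left and Kcnk18 and Kcnj16 on the right lie beyond the cutoff against both WT libraries.

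When both counting intervals also had to exclude 0, 0 members remained in either library, where the higher and lower shares of all genes were 0.229% and 0.399% for the library labelled TRKC+/- and 0.491% and 0.786% for the AdNTF3-Tg library. Without the cutoff, the intervals excluded 0 against both WT libraries in 0 members for the library labelled TRKC+/-, where 2.34% of all genes were higher and 2.12% lower by this rule. In the AdNTF3-Tg library they did in Kcnd3, which was higher (4.84% of all genes were), and in Kcnt1, which was lower (5.31%). For Kcnt1 the interval against WT library 2 ended at -0.0018, with no adjustment for its shorter listed length in the AdNTF3-Tg library. In edgeR's quasi-likelihood test, where 61 members were tested, 0 had an adjusted p under 0.05 in either comparison (0.00706% and 0.0% of 14156 genes). At an unadjusted p under 0.05 edgeR called 0 for the library labelled TRKC+/- (1.93% of genes) and 1, Kcnd3, for the AdNTF3-Tg library (5.88%), and DESeq2 gave 0 adjusted calls in both (0.0114% and 0.0%). These p-values measure only the spread between the 2 WT pools, which may belong to different cohorts, and the lone mutant library is assumed to vary as they do. With 1 library per mutant, genotype and cohort cannot be told apart.

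**Figure D4:**
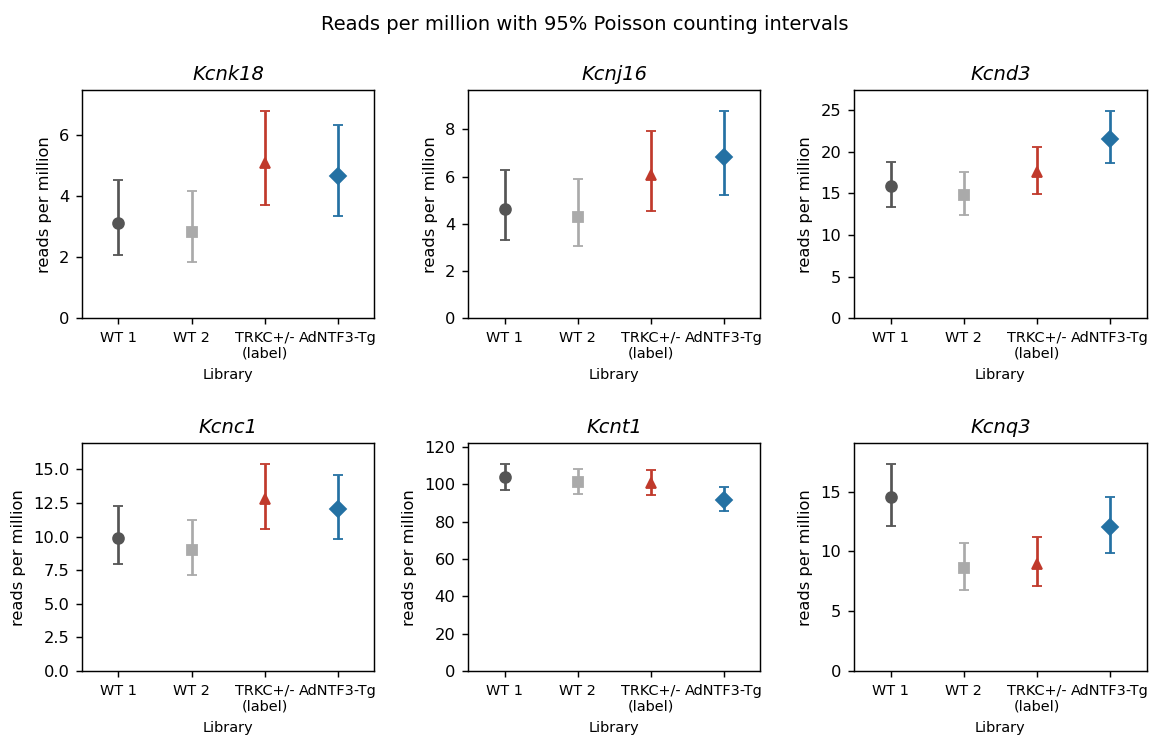
Reads of each library scaled to its depth (CPM) for Kcnk18, Kcnj16, Kcnd3, Kcnc1, Kcnt1 and Kcnq3, with points for single pooled libraries and bars for exact 95% Poisson counting intervals. Kcnk18 rests on 25 to 45 reads with overlapping bars, Kcnd3 is highest in the AdNTF3-Tg library, Kcnc1 is higher in both mutant libraries than in WT, Kcnt1 is lowest in the AdNTF3-Tg library, and Kcnq3 is highest in WT library 1.

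The WT libraries differed from each other more often than either mutant did from both. At least 0.5 apart were 14 of the 71 members (13.4% of all genes compared), 11 of them higher in WT library 1 (7.71%) and 3 in WT library 2 (5.67%). Of the 41 members that averaged 1 FPKM or more 4 were so far apart (7.26%), Kcnip3, Kcnj13, Kcnk4 and Kcnq3. The counting interval of the WT ratio excluded 0 in 10 members (20.5% of all genes), among them Kcna1, Kcna2, Kcnab1, Kcnip4, Kcnj12, Kcnn3 and Kcnq3. A difference from both libraries asks more than a difference between 2, so these counts are not on equal terms.

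Over the 41 members at 1 FPKM or more the median log2 ratio of the library labelled TRKC+/- was -0.02 to WT library 1 and 0.08 to WT library 2, and that of the AdNTF3-Tg library was -0.04 and 0.07, where the median of all genes was 0.00 each time. The WT libraries themselves gave -0.09. In size without sign, the member medians of 0.12 to 0.17 lay beside 0.11 to 0.15 for all genes at that level. Over all 71 members compared, which include genes of few reads, they were 0.18 and 0.20 for the library labelled TRKC+/- (0.13 and 0.15 for all genes) and 0.25 and 0.23 for the AdNTF3-Tg library (0.17 and 0.15), and the largest signed median was 0.12, for the AdNTF3-Tg library over WT library 2 (0.00 for all genes). For 17 members in the library labelled TRKC+/- and 15 in the AdNTF3-Tg library both counting intervals lay within 0.5 of 0 (48.5% and 45.0% of all genes), which are the genes for which a change of that size lay outside the counting error.

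Summed over all members, AdNTF3-Tg reads were above WT library 1 by 0.03 (counting interval -0.0007 to 0.06) and above WT library 2 by 0.07 (0.04 to 0.10) on the log2 scale, beside a WT gap of -0.04 (-0.07 to -0.01). In the library labelled TRKC+/- the same ratios were -0.01 (-0.04 to 0.02) and 0.03 (-0.0002 to 0.06). On summed FPKM the WT gap had the opposite sign, at 0.01, as did the library labelled TRKC+/- over WT library 2, at -0.02, while the AdNTF3-Tg ratios were 0.05 and 0.04. Against the WT mean, scaling the libraries to equal FPKM sums moved the AdNTF3-Tg ratio from 0.0471 to 0.1040 and turned that of the library labelled TRKC+/- from -0.0119 to 0.0052. These sums are led by a few genes, and with 1 library per mutant they have no replicate check.

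Genes whose products bind or anchor potassium channels were read from a list of 21, of which 20 were listed. In this list 0 genes differed from both WT libraries by the cutoff in either mutant, beside 4.27% and 5.7% of all genes, and edgeR called 0 of the 16 it tested, beside 0.00706% and 0.0%, so for so few genes these counts are near the background. Dlg4, the scaffold PSD-95, was at 47.33 and 47.10 FPKM in WT, 49.94 in the library labelled TRKC+/- and 53.76 in the AdNTF3-Tg library. Cntnap2, which gathers Kv1 channels beside the nodes, lay at 11.20 to 12.66 FPKM. Abcc9, which pairs with Kcnj8 and also stands in the pericyte list, was at 0.81 to 0.90 FPKM, and Abcc8, which pairs with Kcnj11, had at most 2 reads.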

How the data were processed

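RNA-seq of T1-T4 sympathetic ganglia was analysed in 4 libraries (2 WT, 1 labelled TRKC+/-, 1 AdNTF3-Tg), each a pool of 6 mice. Per the study's methods mRNA was selected on oligo(dT) beads, and the authors filtered the single-end reads of 50 bases by SOAPnuke before mapping to mm9 by HISAT2, whereas the submitters' processing notes name RSEM and mm10, so no genome positions are given. Strand of counting is not given in the sources used here. The authors deposited, per Entrez gene, an expected count of reads (not normalized, at least 92.6% whole per library), an FPKM value scaled to gene length and library reads, and the length itself.

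Symbols came from a RefSeq table (GRCm38.p6, names only), which matched 17619 identifiers (99.7%). Libraries were grouped by the genotype labels; cohorts named in the names of the deposited tables were not used. The members and lists were chosen with earlier results of these data known. Some genes of this name group, and 1 of a pathway list, are not reported here. Log2 ratios used FPKM + 0.1 over genes listed in all 4 libraries, which understates changes of low genes. Exact 95% Clopper-Pearson intervals came from rounded reads. In a single library 3 reads, the floor, are 0.337 to 0.346 CPM. The expected counts, rounded to whole numbers, entered edgeR 4.0.16 (R 4.3.3; filterByExpr, TMM, 3 groups, quasi-likelihood F-test, Benjamini-Hochberg adjustment over 14156 genes, 1 residual degree of freedom), with DESeq2 1.42.0 as an alternative. On simulated counts for the TRKC+/- comparison (14071 genes), edgeR recovered 97 of 100 genes changed 2-fold and 100 of 100 changed 4-fold, with 10 false calls. The changed genes were drawn only from genes with many reads, and all genes were given the same dispersion. The recovery therefore does not cover members with few reads, such as Kcnk18 (25 to 45 reads).

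Genes were named if among the 3 highest of a class or the 15 highest in all (mean of at least 1 FPKM), if different from both WT libraries at that level, if past edgeR's adjusted p, or if known from sympathetic electrophysiology. Other members in the text were chosen after their values were seen. Gene lists covered 2 pathways (partners and M-current modulators) and markers of 7 cell types. Alternatives were pseudocounts of 1 and 0.01, a mean of at least 1 FPKM, missing genes as 0, a cutoff of 1, median centring, equal FPKM sums, TMM-scaled counts, RLE size factors, no filter, and leaving out each WT library.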

Additional observations from a re-analysis of the deposited data

How the results depend on the processing

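The count of potassium channel genes that differed from both WT libraries was 6 in the library labelled TRKC+/-. It became 0 with a pseudocount of 1, 1 among genes that averaged 1 FPKM or more, 11 when an unlisted gene was set to 0 and 1 with a cutoff of 1, and it was 15 without WT library 1 and 11 without WT library 2. In the AdNTF3-Tg library it was 8, and 1, 2, 14 and 2 under the same settings, and 16 without WT library 1 and 15 without WT library 2, where agreement with only 1 WT library is asked. A pseudocount of 0.01 gave 8 and 9, and centring, equal sums and TMM scaling left both counts at 6 and 8. The edgeR count of 0 stayed 0 with DESeq2, with RLE size factors and without the filter, and leaving out a WT library leaves no residual degrees of freedom, so no test was run there. The summed FPKM over the WT mean, on the log2 scale, was -0.01 in the library labelled TRKC+/- (-0.019 to -0.0050 without a WT library, 0.0052 with equal FPKM sums per library) and 0.05 in the AdNTF3-Tg library (0.040 to 0.054, and 0.1040 with equal sums). Over 34 named genes and both mutants, 21 of 68 ratios changed sign, none of them a counted difference, when a WT library was left out, among them those of Kcna1, Kcna2 and Kcnq3. No paired analysis was run. The labels give the mutant libraries no replicate number and do not say which WT library was the control of which mutant. Cohort names outside the labels were not used, and each mutant library is the only one of its group. Members under 1 FPKM mostly rest on so few reads that a difference of the cutoff was not detectable at this depth.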

Other observations

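Kcnq1ot1, the antisense RNA of the imprinted Kcnq1 locus, held 567 to 590 reads per library yet only 0.78 to 0.80 FPKM, the steadiest level among the low members, and it was the only member with fractional reads. Of the inward rectifiers, Kcnj4, Kcnj5 and Kcnj11 never exceeded 2 reads, and of the BK β subunits Kcnmb1 and Kcnmb2 never exceeded 3, beside 426 to 478 for Kcnmb4. Kcnu1, known as a sperm channel, had 18 to 32 reads per library.

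Adipocyte markers summed to 384.66 and 348.88 FPKM in WT, 214.07 in the library labelled TRKC+/- and 281.5 in the AdNTF3-Tg library. Ucp1, the uncoupling protein of brown fat, was at 47.33 and 48.14 FPKM in WT, 7.80 in the library labelled TRKC+/- and 37.81 in the AdNTF3-Tg library. Endothelial markers lay between 47.17 and 53.32 FPKM in all 4 libraries. Ntf3, the gene of NT-3, had 2 reads in the library labelled TRKC+/- and was not listed elsewhere.

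The listed transcript length of 5 members differed by over 5% between libraries, namely Kcnc1, Kcnd3, Kcne3, Kcnma1 and Kcns2, with Kcne3 the widest at 1.63-fold. FPKM divides by that length, so for these genes the ratio of reads and the ratio of FPKM differ. For Kcnd3 in the AdNTF3-Tg library both are above 0 against both WT libraries. Kcnt1 lies under that limit, at 1.026-fold, yet its counting interval against WT library 2 ended close to 0, at -0.0018.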
